A study of Mus musculus with 16 samples.

Results

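The genes described here encode 9 subunits and enzymes of the tricarboxylic acid (TCA) cycle. They are citrate synthase (Cs), the catalytic subunit (Idh3a) and the other subunits (Idh3b and Idh3g) of NAD-dependent isocitrate dehydrogenase, the first (Ogdh) and the second (Dlst) component of the oxoglutarate dehydrogenase complex, the shared subunit of succinyl-CoA ligase (Suclg1), fumarase (Fh1) and mitochondrial malate dehydrogenase (Mdh2). They were taken by symbol from the 53090 genes in each deposited table, and all 9 were found. The list was chosen with earlier results of these data known. Their expected counts ranged from 666 for Fh1 to 14217 for Cs over the 16 libraries and were whole numbers in all of them, that is, no read had been split with another gene.

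The transcriptomes are of naïve CD4+ T cells (Tn) and of CD4+ T cells 48 h (2 days) into culture under Treg conditions (Treg), of WT and Aim2-/- mice, to learn what the loss of AIM2, a cytosolic sensor of double-stranded DNA, changes in these cells. Tn were splenic CD44low CD62Lhigh cells sequenced after isolation without culture. The paper states that its Treg cultures also started from naïve CD4+ T cells. Treg were stimulated with anti-CD3/CD28 antibodies together with recombinant human TGF-beta and recombinant mouse IL-2. The 4 groups, WT Tn, Aim2-/- Tn, WT Treg and Aim2-/- Treg, had 4 libraries each. Aim2-/- mice lack AIM2 in every cell, and both genotypes are of C57BL/6 background. Treg culture therefore joins activation, cytokines and time away from the animal, which cannot be told apart in these groups. The titles number the libraries 1 to 4 within a group, and no source used here says that each was a separate mouse, so p-values measure the spread between these libraries.

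The TCA cycle oxidizes the acetyl group of acetyl-CoA in the mitochondrial matrix and passes the electrons to the respiratory chain as NADH and reduced flavin. Its intermediates also leave the cycle, citrate for lipid synthesis and oxaloacetate for aspartate, and glutamine refills it through 2-oxoglutarate. Resting T cells run it at a low rate to burn fuel, and T cell activation raises both its flux and the mitochondrial mass, while regulatory T cells are known for relying on mitochondrial oxidation more than effector T cells do.

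The libraries held 22516424 to 34533316 counts, so that 3 counts, taken as the floor for a measurable signal, stood for 0.0869 to 0.133 CPM. This floor covers counting error only. CPM are counts relative to the TMM-scaled library size, and all 9 members lay far above the floor. The CPM, and the overlaps read from them, were scaled over all libraries together. Each fit was scaled anew on the libraries and genes it tested, so fitted fold changes can differ somewhat from those between CPM means. Aim2 itself was lower in each Aim2-/- library (6.44 to 9.21 CPM in Tn and 7.29 to 11.0 in Treg) than in each WT library (32.0 to 37.8 and 36.1 to 43.7), as the labels say. Foxp3, the transcription factor that defines Treg, rose from 1.97–3.98 CPM in Tn to 283–574 CPM in Treg, and Il2ra, the IL-2 receptor alpha chain, from 2.65–4.58 to 1321–1513 CPM. Cd4 was at 807 to 974 CPM in Tn and at 369 to 417 CPM in Treg, and the summed level of 6 T cell markers was likewise lower in every Treg library (1800 to 1962 CPM) than in every Tn library (3623 to 4476 CPM). Markers of other cells were low. The summed level of 6 B cell markers was 0.377 to 2.35 CPM, with Ms4a1 at 0 in every group. That of 6 myeloid markers was 0.239 to 8.49 CPM, of 4 erythroid markers 0.0342 to 4.89, of 3 platelet markers 0.578 to 4.64, of the CD8 pair 2.29 to 12.1, and of 4 NK cell markers 1.64 to 37.0 CPM, and each of these lists was lower in Treg than in Tn of the same genotype. The erythroid sum was also higher in Aim2-/- Tn (3.26 to 4.89 CPM) than in WT Tn (0.67 to 2.55). Their part in the results was not tested.

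The promoters of Cs and Fh1, which rose more than 2-fold in culture, and of Idh3b, which changed least, are shown to place these genes. RefSeq (GRCm38.p6) holds promoters of 8 of the 9 members by symbol, all but Idh3a, with 6 start sites for Ogdh and 1 for each of the others. Each sequence holds the bases up to the start site, at most 250, on the strand of the gene, and ends before the first exon of the gene in GENCODE M21, which leaves 154 bases for Idh3b. They lie at chr10:128337477-128337726 on the plus strand, chr1:175625636-175625885 on the minus strand and chr2:130284548-130284701 on the minus strand. Capitals mark matches to a GC box (GGGCGG) or a CCAAT box (CCAAT) on either strand.
Cs: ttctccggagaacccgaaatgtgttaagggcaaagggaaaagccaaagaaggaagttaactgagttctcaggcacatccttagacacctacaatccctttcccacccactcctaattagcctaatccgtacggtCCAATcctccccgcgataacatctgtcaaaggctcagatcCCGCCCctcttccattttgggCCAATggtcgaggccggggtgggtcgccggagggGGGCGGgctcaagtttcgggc
Fh1: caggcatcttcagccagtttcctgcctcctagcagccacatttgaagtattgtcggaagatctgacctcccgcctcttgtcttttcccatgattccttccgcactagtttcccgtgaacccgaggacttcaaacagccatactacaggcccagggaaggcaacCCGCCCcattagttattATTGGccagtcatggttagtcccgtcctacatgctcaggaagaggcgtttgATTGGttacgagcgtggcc
Idh3b: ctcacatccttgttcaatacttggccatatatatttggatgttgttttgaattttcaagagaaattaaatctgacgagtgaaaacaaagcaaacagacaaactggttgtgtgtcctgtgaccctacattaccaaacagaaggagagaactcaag

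Cs held 2 CCAAT boxes, at -116 and -55 from the start site, and 2 GC boxes, at -76 and -21. Fh1 held 2 CCAAT boxes, at -70 and -19, and 1 GC box, at -87. Idh3b held none of them in the printed stretch, and 1 CCAAT box, at -76, in the 96 bases left out. In the 250 bases before the start site, a GC box was found for 5 of the 8 members with a promoter (Cs, Ogdh, Dlst, Fh1 and Mdh2) and in 32.7% of all 32851 mouse promoters, and a CCAAT box for 4 (Cs, Idh3b, Ogdh and Fh1) and in 33.8%. The cyclic AMP response core TGACGT was found for 3 members (Idh3g, Ogdh and Mdh2) and in 6.47% of promoters. In Mdh2 its matches on both strands, at -127 and -125, overlap. Matches on both strands also overlap in Ogdh, for example at -51 and -49 in 1 of its promoters. The ETS core CCGGAAG was found for Idh3g (6.91% of promoters), the E-box CACGTG and the NRF1 core GCGCATGC for Ogdh (6.02% and 2.26%), and the YY1 core AAGATGGC for Idh3g (1.56%). Ogdh counted as a match where any of its 6 promoters held one. These matches are a description of letters, not of binding.

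The first comparison asked how Treg culture changed the cycle. In WT cells, 8 of the 9 members rose (edgeR quasi-likelihood test, adjusted p under 0.05 over 13675 genes), where 37.7% of all genes tested rose and 39.2% fell. In Aim2-/- cells the same 8 rose, where 39.1% of 13713 genes rose and 40.2% fell. The member that passed in neither genotype was Idh3b. The rises fell into 2 sizes. Cs, Idh3a, Fh1 and Mdh2 rose 2.15-fold to 3.15-fold, and Idh3g, Ogdh, Dlst and Suclg1 rose 1.16-fold to 1.36-fold. The median of the 9 members was 0.30 on the log2 scale in WT and 0.44 in Aim2-/-, beside -0.05 and -0.04 over all genes tested. In bulk RNA, more transcript per cell and more cells that hold the transcript cannot be told apart, and CPM are shares of a library that carry no information on the RNA content of a cell.

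**Figure D1:**
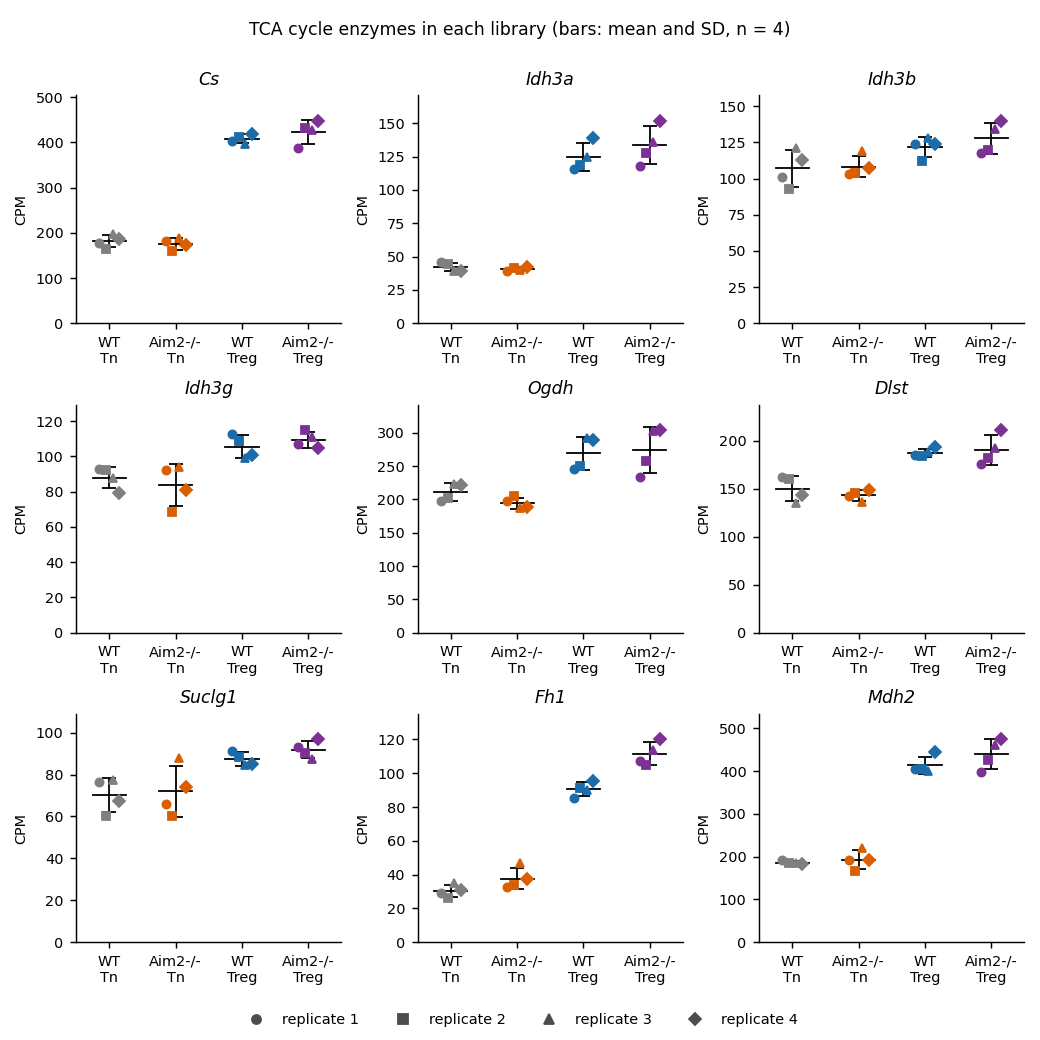
Each panel shows 1 of the 9 TCA cycle genes, with CPM on the y axis from 0 and the 4 groups on the x axis, 1 symbol per library (its shape gives the replicate number), and the mean and SD (n = 4). Cs, Idh3a, Fh1 and Mdh2 sit far higher in all Treg libraries than in all Tn libraries, while Idh3b overlaps between the states.

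Citrate synthase joins acetyl-CoA to oxaloacetate and so opens the cycle. Cs (chromosome 10, 128337734 to 128362479 on GRCm38) was at 177, 165, 197 and 186 CPM in WT Tn and at 404, 412, 396 and 419 CPM in WT Treg. In Aim2-/- it was at 183, 159, 188 and 172 CPM in Tn and at 387, 431, 427 and 448 CPM in Treg. Every Treg library was higher than every Tn library, by 1.11 on the log2 scale (SE 0.07, 2.17-fold, adjusted p = 3.4e-07, edgeR) in WT and by 1.22 (SE 0.08, 2.32-fold, adjusted p = 9.1e-08) in Aim2-/-.

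NAD-dependent isocitrate dehydrogenase makes 2-oxoglutarate and NADH, and its subunits are encoded by Idh3a (chromosome 9, 54586334 to 54604661), Idh3b (chromosome 2, 130279309 to 130284547) and Idh3g (X chromosome, 73778963 to 73786897). The catalytic subunit Idh3a was at 46.0, 44.1, 39.3 and 39.5 CPM in WT Tn and at 116, 119, 125 and 139 CPM in WT Treg. In Aim2-/- it was at 39.4, 41.3, 40.0 and 42.3 CPM in Tn and at 118, 128, 136 and 152 CPM in Treg. Its rise, 1.51 (SE 0.09, 2.84-fold, adjusted p = 1.7e-07, edgeR) in WT and 1.65 (SE 0.09, 3.15-fold, adjusted p = 1.2e-08) in Aim2-/-, was among the steepest of the 9. Idh3b was at 101, 92.9, 121 and 113 CPM in WT Tn and at 124, 112, 128 and 124 CPM in WT Treg. In Aim2-/- Idh3b was at 103, 104, 119 and 107 CPM in Tn and at 118, 120, 134 and 140 CPM in Treg. The states overlapped in both genotypes, and the differences of 0.14 (95% interval -0.06 to 0.34, adjusted p = 0.19, edgeR) and 0.18 (0.00 to 0.37, adjusted p = 0.06) did not pass. Idh3g went from 79.4–92.8 to 99.2–113 CPM in WT, a rise of 0.21 (SE 0.08, adjusted p = 0.031), and from 68.5–94.2 to 105–115 CPM in Aim2-/-, a rise of 0.33 (SE 0.10, adjusted p = 0.0095). Without Aim2-/- Tn replicate 2, the rise in Aim2-/- was 0.20. The Idh3g call was lost in WT without WT Tn replicate 2, 3 or 4 (adjusted p = 0.051, 0.05 and 0.086) and in Aim2-/- without Aim2-/- Tn replicate 4 (0.064), and in WT with correcting for the GC content and length of genes (0.12, adjusted p = 0.20).

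The unequal rise shows in the ratio of the subunits within a library, which needs no scaling between libraries. The ratio of Idh3a to Idh3b counts was 0.457, 0.475, 0.326 and 0.351 in WT Tn and 0.929, 1.06, 0.975 and 1.12 in WT Treg. In Aim2-/- it stood at 0.384, 0.396, 0.336 and 0.394 in Tn and at 0.998, 1.06, 1.02 and 1.08 in Treg. It was 2.57 times as high in Treg as in Tn in WT and 2.76 times in Aim2-/-, and the groups did not overlap. The ratio of Idh3a to Idh3g likewise went from 0.448–0.497 to 1.02–1.38 in WT and from 0.425–0.604 to 1.10–1.44 in Aim2-/-. Each of these 4 differences had p = 0.029, the smallest that a two-sided exact permutation test of 4 against 4 libraries allows, and an adjusted p of 0.095 over the 20 ratio tests, of which 0 passed. A ratio with this p could pass only if most of the 20 tests had it too, so the adjusted p does not decide the question.

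**Figure D2:**
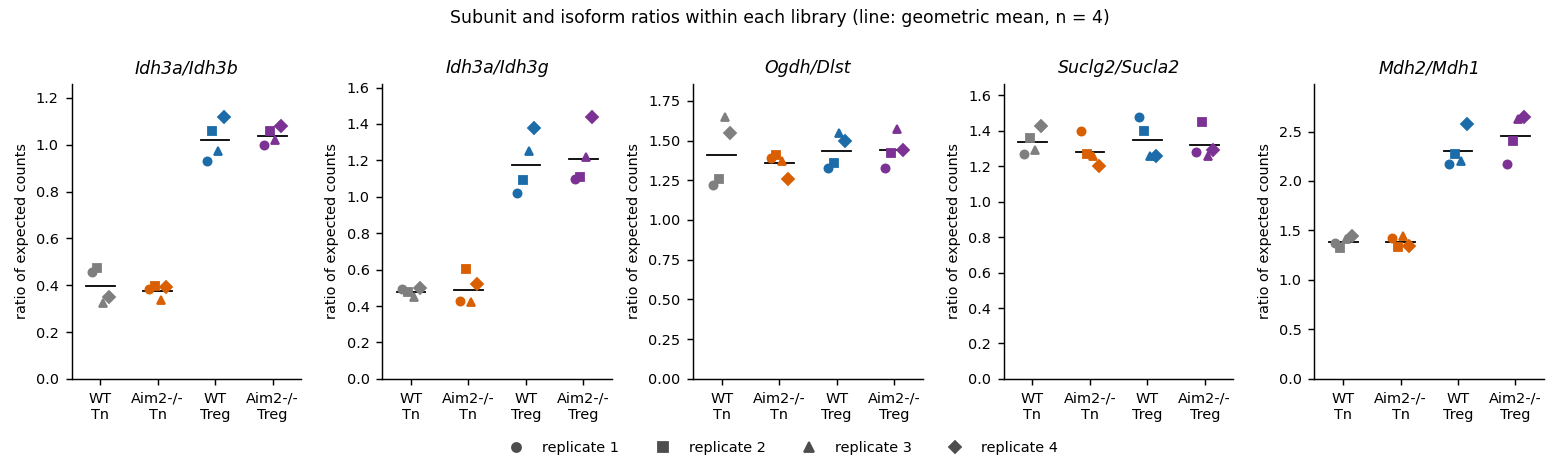
Ratios of the expected counts of 2 genes within each library (y axes from 0), by group, with 1 symbol per library and the geometric mean as a line (n = 4). Idh3a/Idh3b, Idh3a/Idh3g and Mdh2/Mdh1 are higher in every Treg library than in every Tn library, while Ogdh/Dlst and Suclg2/Sucla2 overlap.

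Idh2, the NADP-dependent isocitrate dehydrogenase of the matrix, went the other way. It was at 45.4 to 61.9 CPM in WT Tn and at 32.2 to 43.3 CPM in WT Treg, and at 47.4 to 71.0 and 36.5 to 39.9 CPM in Aim2-/-. It fell by 0.54 on the log2 scale (SE 0.13, adjusted p = 0.0041, edgeR) in WT and by 0.71 (SE 0.11, adjusted p = 0.00012) in Aim2-/-, the fall of 1 gene among the 8 other TCA cycle enzymes that were tested in both states. Idh1, its cytosolic counterpart, stayed near 5 CPM (means 4.52 to 5.48) and did not pass in either genotype.

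The oxoglutarate dehydrogenase complex turns 2-oxoglutarate into succinyl-CoA. Ogdh (chromosome 11, 6291633 to 6356642), its first component, was at 197, 202, 223 and 222 CPM in WT Tn and at 246, 250, 292 and 289 CPM in WT Treg. In Aim2-/- it was at 197, 205, 187 and 188 CPM in Tn and at 234, 258, 302 and 304 CPM in Treg. All Treg libraries were higher than all Tn libraries of their genotype, by 0.30 (SE 0.08, 1.23-fold, adjusted p = 0.0072, edgeR) in WT and by 0.44 (SE 0.09, 1.36-fold, adjusted p = 0.00097) in Aim2-/-, and within Treg of both genotypes replicates 3 and 4 were higher than replicates 1 and 2. Dlst (chromosome 12, 85110833 to 85134845), the succinyltransferase core, went from 135–162 to 184–193 CPM in WT, a rise of 0.27 (SE 0.07, adjusted p = 0.0075), and from 136–149 to 176–211 CPM in Aim2-/-, a rise of 0.36 (SE 0.08, adjusted p = 0.0011). The Dlst call was lost in Aim2-/- when GC content and gene length were corrected for (0.16, adjusted p = 0.12), and in WT when the replicate number was also a block (0.19, adjusted p = 0.075). The ratio of Ogdh to Dlst was 1.22 to 1.65 in Tn and 1.33 to 1.57 in Treg over both genotypes, and overlapped between the states. Dld, the dehydrogenase that this complex shares with the pyruvate dehydrogenase complex, rose by 0.90 (SE 0.10) in WT and 0.98 (SE 0.09) in Aim2-/-.

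Succinyl-CoA ligase pairs the subunit encoded by Suclg1 (chromosome 6, 73248382 to 73276911) with that of Suclg2 to make GTP or with that of Sucla2 to make ATP. Suclg1 was at 76.6, 60.1, 77.2 and 67.2 CPM in WT Tn and at 91.5, 88.6, 84.7 and 85.2 CPM in WT Treg. In Aim2-/- Suclg1 was at 65.8, 60.1, 87.9 and 74.0 CPM in Tn and at 93.4, 90.2, 87.6 and 96.8 CPM in Treg, where Tn replicate 3 lay just above the lowest Treg library. It rose by 0.26 (SE 0.09, adjusted p = 0.023, edgeR) in WT and by 0.30 (SE 0.11, adjusted p = 0.027) in Aim2-/-. These calls were lost without WT Tn replicate 2 or 4 (adjusted p = 0.088 and 0.072, with rises of 0.16 and 0.23), without Aim2-/- Tn replicate 1, 2 or 4 (0.15, 0.16 and 0.092, with rises of 0.20, 0.17 and 0.26), and when GC content and gene length were corrected for (0.07, adjusted p = 0.51, and 0.08, adjusted p = 0.53). Its partners rose more, Suclg2 by 0.80 (SE 0.09) in WT and 0.84 (SE 0.09) in Aim2-/-, and Sucla2 by 0.77 (SE 0.08) and 0.80 (SE 0.08), and the ratio of Suclg2 to Sucla2 stayed between 1.20 and 1.48 in all 16 libraries. The expected counts of Suclg2 were not whole numbers in most libraries, so part of its reads were shared with other genes.

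Succinate dehydrogenase, which links the cycle to the respiratory chain as complex II, is not among the 9 members. Its 4 subunits all rose, Sdha by 0.55 in WT and 0.59 in Aim2-/-, Sdhb by 0.84 and 0.81, Sdhc by 0.64 and 0.66, and Sdhd by 1.33 and 1.26 on the log2 scale.

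Fumarase hydrates fumarate to malate, in the matrix and in the cytosol. Fh1 (chromosome 1, 175600374 to 175625635) was at 28.8, 26.2, 34.7 and 30.7 CPM in WT Tn and at 85.4, 91.3, 90.3 and 95.3 CPM in WT Treg. In Aim2-/- Fh1 was at 32.7, 34.1, 46.6 and 37.1 CPM in Tn and at 107, 105, 114 and 120 CPM in Treg. All Treg libraries were far above all Tn libraries of their genotype, with rises of 1.53 (SE 0.09, 2.90-fold, adjusted p = 3e-07, edgeR) in WT and 1.51 (SE 0.11, 2.85-fold, adjusted p = 2.3e-07) in Aim2-/-.

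Mitochondrial malate dehydrogenase regenerates oxaloacetate and closes the cycle. Mdh2 (chromosome 5, 135778480 to 135790398) was at 192, 184, 184 and 182 CPM in WT Tn and at 406, 405, 401 and 444 CPM in WT Treg. In Aim2-/- Mdh2 was at 193, 166, 220 and 192 CPM in Tn and at 397, 427, 460 and 474 CPM in Treg. It rose by 1.10 (SE 0.06, 2.15-fold, adjusted p = 1.2e-07, edgeR) in WT and by 1.13 (SE 0.10, 2.19-fold, adjusted p = 7.4e-07) in Aim2-/-, with no overlap between the states. Mdh1, the cytosolic form that works with Mdh2 in the malate-aspartate shuttle, rose by 0.37 (SE 0.06) in WT and 0.31 (SE 0.08) in Aim2-/-. When GC content and gene length were corrected for, Mdh1 came to 0.20 (adjusted p = 0.02) in WT, and in Aim2-/- its call was lost (0.16, adjusted p = 0.065, and 0.16, adjusted p = 0.094, when the block was added). The ratio of Mdh2 to Mdh1 counts went from 1.32–1.44 to 2.17–2.58 in WT and from 1.33–1.44 to 2.17–2.65 in Aim2-/- (1.66-fold and 1.77-fold, exact permutation p = 0.029 each, adjusted p = 0.095).

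**Figure D3:**
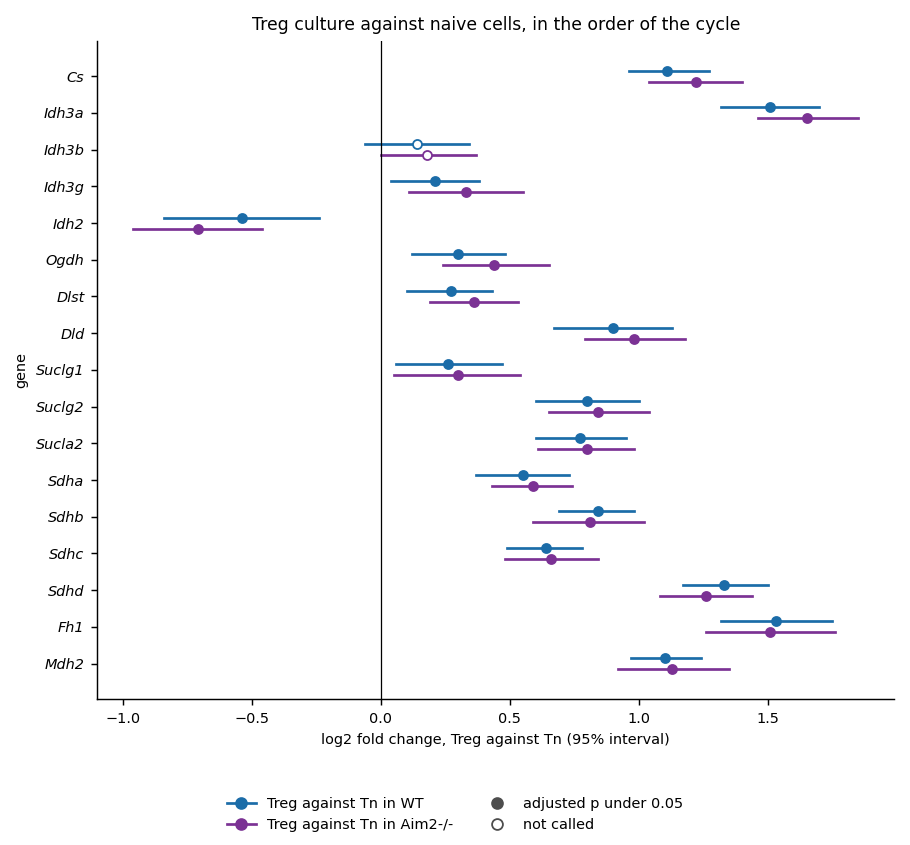
Log2 fold change of Treg against Tn (x axis, with 95% interval) for the genes of the cycle in the order of its steps, in WT and Aim2-/- (4 against 4 libraries each). Filled points have an adjusted p under 0.05. Cs, Idh3a, Sdhd, Fh1 and Mdh2 lie above 1, Idh3b, Idh3g, Ogdh, Dlst and Suclg1 lie between 0.14 and 0.44, and Idh2 lies below 0.

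Whether a member's states overlapped was counted as well. In WT, 8 of the 9 members (all but Idh3b) were higher in every Treg library than in every Tn library, beside 37.9% of all genes tested. In Aim2-/- these were 7 (all but Idh3b and Suclg1), beside 38.5%. Summed over the 9 members, WT Tn held 1065 ± 29.6 CPM (SD, n = 4), Aim2-/- Tn 1048 ± 55.8, WT Treg 1809 ± 55.8 and Aim2-/- Treg 1903 ± 136. The Aim2-/- Treg libraries spread most, with replicate 1 above its group mean for 1 of the 9 members and replicates 3 and 4 for 8 each.

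Around the cycle, each list holds genes in the same fits. Of the other TCA cycle enzymes, 8 were tested in both states, of which 7 rose and 1 (Idh2) fell in both genotypes, with medians of 0.79 in WT and 0.80 in Aim2-/-. Ogdhl, a homologue of Ogdh, reached the count minimum through Treg alone and so had to be higher there. It was at 0.103 to 0.293 CPM in Tn, near the floor, and at 0.581 to 1.20 CPM in Treg, and with it the medians of the list were 0.80 and 0.81. Csl was too low to test. Of the 4 cytosolic counterparts, 3 rose in each genotype, Acly, which splits exported citrate, by 0.68 and 0.88, Aco1, which also serves as an iron sensor of the cytosol, by 0.95 and 1.04, and Mdh1, whose call in Aim2-/- was lost with the correction given above.

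The genes by which pyruvate enters the mitochondrion and the cycle moved both ways. Of 13 tested, 7 rose and 3 fell in WT, and likewise 7 and 3 in Aim2-/-, with medians of 0.71 and 0.75. Pcx, pyruvate carboxylase, which makes oxaloacetate from pyruvate, rose by 2.70 (SE 0.18) in WT, from a mean of 4.40 to 29.7 CPM, and by 2.91 (SE 0.16) in Aim2-/-, from 3.48 to 27.2 CPM. The kinases that inhibit pyruvate dehydrogenase parted. Pdk1 fell by 2.32 (SE 0.13) in WT, from a mean of 342 to 71.1 CPM, and by 2.45 (SE 0.18) in Aim2-/-, from 360 to 68.7 CPM. Pdk2 fell by 2.16 (SE 0.34) in WT and decreased by 2.81 (SE 0.44) in Aim2-/-, and Pdk3 rose by 1.52 (SE 0.10) and 1.64 (SE 0.11). Pdk4 was too low to test. The other gene that fell was Pdp1, a pyruvate dehydrogenase phosphatase, by 0.82 (SE 0.25) in WT and 0.55 (SE 0.21) in Aim2-/-. Its states overlapped in both genotypes.

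Of the genes that exchange TCA cycle intermediates with glutamate, aspartate, malate and citrate, 14 were tested in both states, of which 8 rose and 1 fell in WT, and 10 rose and 1 fell in Aim2-/-, with medians of 0.87 and 1.37. Got1, Gpt2 and Pck2 were called in Aim2-/- alone and Slc25a11 in WT alone, and none of the list passed in the interaction. Got1 ran from 33.3 to 166 CPM in WT Tn. Gls2, a glutaminase, reached the count minimum through Treg alone. It was at 0 to 0.828 CPM in WT Tn, 0.146 to 0.373 in Aim2-/- Tn, 12.6 to 17.4 in WT Treg and 10.6 to 20.1 CPM in Aim2-/- Treg. With libraries at or under the floor in WT Tn its fitted rise there is not well set, 5.05 to 6.40 on the log2 scale when 1 library was left out. Slc25a13, a mitochondrial aspartate-glutamate carrier, rose by 4.24 (SE 0.13) from 0.971 to 19.1 CPM and by 4.54 (SE 0.19) from 0.910 to 21.9 CPM. D2hgdh, which oxidizes D-2-hydroxyglutarate back to 2-oxoglutarate, fell by 1.74 (SE 0.09) and 1.78 (SE 0.11). Me1, Me3 and Acod1 were too low to test.

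For comparison, 13 of 17 glycolytic enzymes rose and 3 fell in each genotype, with medians of 1.24 and 1.45, Hk2 (hexokinase 2) by 6.20 and 7.23 and Pgam1 (phosphoglycerate mutase) by 3.24 and 3.37, against falls of Ldhb (lactate dehydrogenase B) by 1.55 and 1.43 and Aldoc (aldolase C) by 0.78 and 0.95. Of 7 nuclear core subunits of complex I, 7 rose in WT and 6 in Aim2-/-, with medians of 0.78 and 0.76, led by Ndufv2 (1.01) and Ndufs8 (0.99) in WT and by Ndufs1 (0.93) and Ndufs8 (0.91) in Aim2-/-. Set beside these lists, the 9 members had the lowest median, 0.30 and 0.44. Their rises fell into the 2 sizes given above, and the other 8 TCA cycle enzymes tested in both states had medians of 0.79 and 0.80. The low median therefore describes these 9 genes and not the cycle as a whole. That several of these lists rose as a group was not tested.

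**Figure D4:**
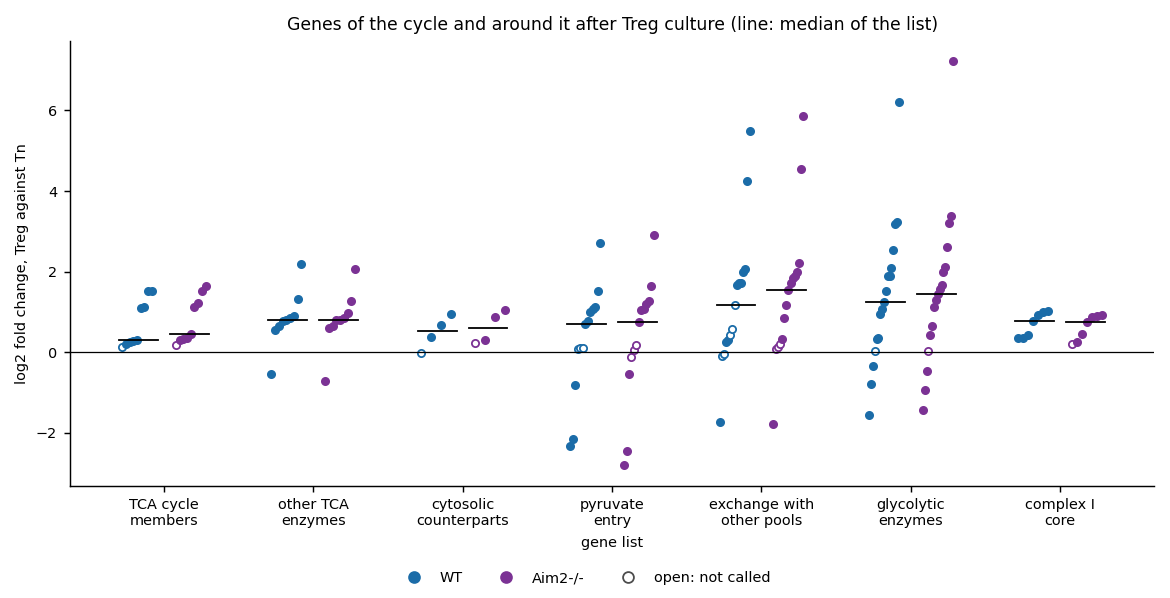
Log2 fold change of Treg against Tn (y axis) for each tested gene of 7 lists (x axis), in WT and Aim2-/- (4 against 4 libraries each), with filled points for an adjusted p under 0.05 and the list's median, Ogdhl and Gls2 included, as a line. The 9 members lie between 0.14 and 1.65, and Gls2, Slc25a13 and Hk2 stand above 4.

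The second comparison asked what the loss of AIM2 changed in these genes within each state. In Tn, 0 of the 9 members passed edgeR's test, where 0.231% of 13441 genes did. By this test 1 member (Fh1) had an unadjusted p under 0.05, as did 1389 of the 13441 genes. DESeq2 and limma-voom also called 0 of the 9. In Treg, again 0 of the 9 passed by edgeR and by limma-voom, where 0.219% of 13221 genes passed by edgeR. An unadjusted p under 0.05 by edgeR was found for 1 member (Fh1) and for 305 of the 13221 genes. DESeq2 called Fh1 in Treg, among 52 genes in all. Over the 9 members the median log2 difference came to -0.03 in Tn and to 0.06 in Treg, beside 0.01 and 0.00 over all genes tested. Excluding Fh1, the differences ran from -0.10 (Ogdh) to 0.08 (Mdh2) in Tn and from 0.01 (Dlst) to 0.09 (Idh3a) in Treg. Their 95% intervals together reached from -0.29 (Idh3g) to 0.34 (Suclg1) in Tn and from -0.20 (Ogdh) to 0.28 (Idh3a) in Treg. A test that did not pass does not show that the genotypes were alike.

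**Figure D5:**
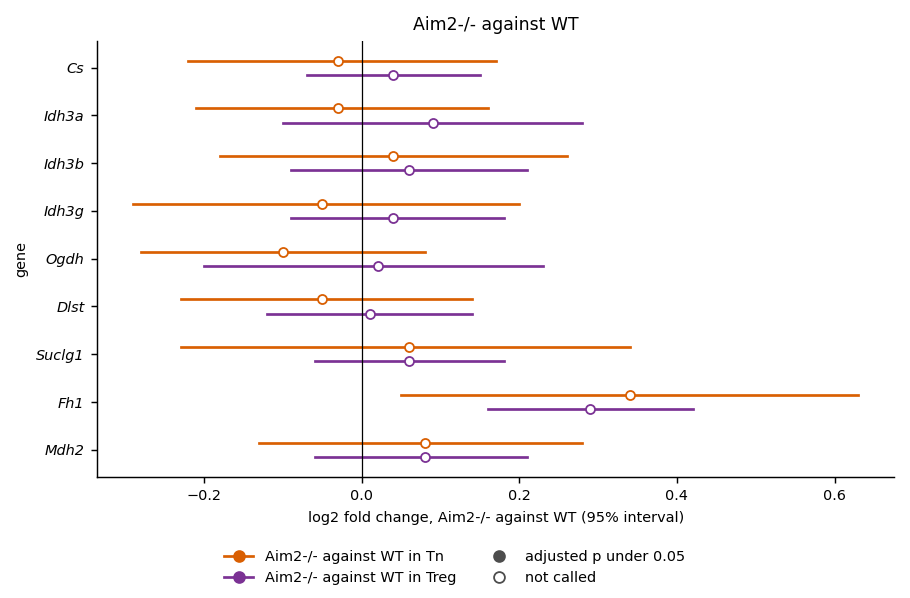
Log2 fold change of Aim2-/- against WT (x axis, with 95% interval) for the 9 genes in Tn and in Treg (4 against 4 libraries each). Open points did not pass an adjusted p of 0.05, which is all of them, and Fh1 stands to the right of the others at 0.34 in Tn and 0.29 in Treg.

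Fh1 was the member with the largest genotype difference in both states. In Tn it was 1.27-fold higher in Aim2-/-, 0.34 on the log2 scale (95% interval 0.05 to 0.63, adjusted p = 0.43, edgeR), and the groups overlapped (26.2 to 34.7 CPM in WT and 32.7 to 46.6 in Aim2-/-). In Treg it was 1.22-fold higher, 0.29 (0.16 to 0.42, adjusted p = 0.22), and each Aim2-/- library (105 to 120 CPM) was higher than each WT library (85.4 to 95.3 CPM). Fh1 was the 1 member of the 9 with no overlap in Treg, where 1.38% of all genes tested were higher without overlap, and in Tn, with 3.0% of all genes, no member was. DESeq2 gave Fh1 an adjusted p of 0.0021 in Treg and 0.36 in Tn. With the replicate number as a block, edgeR gave Fh1 an adjusted p of 0.047 in Treg and 0.25 in Tn. In Treg its difference stayed between 0.26 and 0.32 in all fits that left out 1 library, without passing in any of them. Without Aim2-/- Tn replicate 3, the difference in Tn was 0.22 in place of 0.34.

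Fh1 lies on chromosome 1, 2.13 Mb from Aim2 (173350879 to 173466040), the gene that was disrupted. Sdhc, another gene of the cycle, lies 2.20 Mb from Aim2 on its other side (171127165 to 171150603) and differed by -0.02 (95% interval -0.22 to 0.18) in Tn and -0.03 (-0.13 to 0.07) in Treg. The part of this position in the Fh1 values was not tested.

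Whether culture changed the members differently in the genotypes was tested as an interaction. By edgeR 0 of the 9 members passed, where 0.0205% of 14669 genes did. An unadjusted p under 0.05 was found for 0 members and for 512 of the 14669 genes. DESeq2 and limma-voom called 0 members as well. The differences between the culture effects (Aim2-/- minus WT) ran from -0.04 for Fh1 (95% interval -0.37 to 0.28) to 0.13 for Idh3a (-0.13 to 0.38) and 0.13 for Ogdh (-0.14 to 0.39). None of the other TCA cycle, cytosolic, pyruvate, exchange, glycolytic and complex I genes passed in a genotype comparison or in the interaction.

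Levels can be compared between genes after division by transcript length. With the length of all annotated exons of a gene, and scaled within a library as TPM, a share per unit of length, Mdh2 was the most abundant of the 9 in each group, at 161 ± 6.32 (SD, n = 4) in WT Tn, 159 ± 9.95 in Aim2-/- Tn, 369 ± 12.3 in WT Treg and 376 ± 22.0 in Aim2-/- Treg. In Tn, Ogdh had the second highest mean (120 ± 14.2 in WT and 105 ± 9.69 in Aim2-/-) before Idh3g, Cs and Idh3b, which overlapped each other at 79.5 to 112. Its libraries overlapped with those of Cs and Idh3b in WT (105 to 134, beside 85.2 to 108 and 80.8 to 112) and with those of Idh3b and Idh3g in Aim2-/- (94.5 to 118, beside 88.3 to 95.9 and 79.5 to 100), so the second place in Tn does not hold beyond the spread. Dlst and Suclg1 overlapped at 38.7 to 53.1, and Fh1 (23.0 to 37.9) and Idh3a (21.8 to 26.3) were lowest. In Treg, Cs came second (224 ± 4.09 in WT and 223 ± 8.80 in Aim2-/-) and Ogdh came next (157 ± 14.4 and 153 ± 16.5), Idh3g and Idh3b overlapped at 106 to 132, Fh1 (79.4 to 104) and Idh3a (71.9 to 88.2) had moved above the rest, and Dlst and Suclg1 overlapped at 57.3 to 65.0. With the length of the longest transcript in place of all exons, Mdh2 stayed first in each group and Cs second in Treg. But Cs then had the second highest mean also in Tn, overlapping Idh3b and Ogdh in WT. The mean of Dlst moved above that of Idh3g (105 in place of 48.3 in WT Tn), with overlap in Tn. The mean of Idh3a lay above that of Fh1, with overlap in Aim2-/- Tn. The order below Mdh2 therefore rests on which transcripts are used, which was not measured.

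The genes outside these lists whose log2 CPM over the 16 libraries was most like the mean of the 9 members were Cyc1, Ssr2 and Psma1 (Pearson r = 0.998 each) and Mrpl18 and Mtch2 (0.997). These values are set mainly by the difference between Tn and Treg, which many genes share. After each group's mean was taken out they were Mrps27 (0.960), Mrpl20 (0.959), Ostc (0.957), Polr2h (0.956) and Tma7 (0.955). The points share their libraries and depth.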

How the data were processed

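RNA of 16 libraries was analysed, WT and Aim2-/- Tn and Treg, 4 in each group, grouped and numbered by their titles. The authors made stranded mRNA libraries, read 51 nt single ends, mapped them to GRCm38 with STAR and deposited the expected counts that RSEM estimated per gene, neither normalized nor filtered, with GENCODE m15 named as annotation. Versions of STAR and RSEM and the strand setting are not given in the sources used here. The 9 genes and all lists were chosen with earlier results of these data known. In the list of other TCA cycle enzymes, 1 gene is not reported here and was left out of the counts and medians.

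Expected counts were rounded to whole numbers. Genes that reached 10 counts in 4 or more of the compared libraries were tested with edgeR 4.0.16 (two-sided quasi-likelihood F test, robust, TMM) on the 8 libraries compared, or on all 16 for the interaction, with Benjamini-Hochberg adjustment over all genes tested and a threshold of 0.05. The pairwise comparisons share libraries with each other. Ratios used count + 0.5 and an exact permutation test (two-sided, 70 arrangements), adjusted over 20 tests. Fits were tested on simulated counts. Coordinates and lengths came from GENCODE M21 (GRCm38), which held 98.9% of the genes, and promoters from RefSeq. Where a symbol stood in more than 1 row, the row with more counts was used. Named were all members, from each other list the 2 called genes with the largest rise and fall in culture, the partner subunits and cytosolic forms, and the 5 genes most like the members by each measure of likeness. Pdp1 and the exchange genes called in 1 genotype alone were named as well. Alternatives were DESeq2 1.42.0, RLE factors, limma-voom (limma 3.58.1), other filters, all libraries in 1 fit, the replicate number as a block, replicates 1 and 2 against 3 and 4 as a covariate, a correction for GC content and length (spline, 5 degrees of freedom) alone or with the block, each library left out in turn, other pseudocounts (0 and 5), and the length of the longest transcript.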

Additional observations from a re-analysis of the deposited data

Results flagged for a closer look

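Of the groups of 4 libraries tested for a library far from the others (Dixon's test at its 95% critical value, which chance passes in about 1 group in 20), 1 of 56 stood out. Mdh2 in WT Treg was at 444 CPM in replicate 4 and at 401 to 406 CPM in the other 3 libraries. Without that library the rise of Mdh2 in WT culture was still called.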

How the results depend on the processing

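The calls of Cs, Idh3a, Ogdh, Fh1 and Mdh2 in both culture comparisons held under all alternatives run, and no member was called in Tn between genotypes or in the interaction under any of them. In the WT culture comparison the GC and length correction with the replicate block left 5 members called in place of 8 (Idh3g, Dlst and Suclg1 were lost), and Idh3b came to -0.022 with the correction alone and -0.016 with both, in place of 0.14. In Aim2-/- culture Idh3b was called with DESeq2, RLE factors, the replicate block (adjusted p = 0.043), the covariate, and without Aim2-/- Treg replicate 1 or 2. Between genotypes in Treg, 1 member (Fh1) was called with DESeq2 (adjusted p = 0.0021), the replicate block (0.047), the covariate of replicates 1 and 2 against 3 and 4 (0.036) and the GC and length correction with the block (0.046), while its adjusted p was 0.11 to 1.0 under the others. The replicate block changed no other call of a member. The deviations of same-numbered libraries from their group means had correlations of 0.224, 0.0582, 0.346 and 0.0287 between genotypes in Tn, 0.488, 0.299, -0.0196 and 0.421 in Treg, and -0.0434 to 0.148 between states. The main fits did not use the numbers to pair the libraries. In Treg, replicates 1, 2 and 4 stood at 0.299 to 0.488, and whether libraries of the same number were paired there was not tested. The edgeR call of Fh1 in Treg depended on whether the number was used. The numbers are those of the titles. The names of the deposited tables number Aim2-/- Tn replicates 2 to 4 and the Treg libraries differently, so the block, the covariate and these correlations rest on the titles. For the ratios the block called 0 of 20, with a smallest possible p of 0.125, so that no ratio could pass.

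Small differences changed sign. Between genotypes in Tn, Cs came to 0.02 with the GC and length correction, with and without the block, Dlst to 0.081 without and 0.083 with the block, and Idh3a to 0.00038 with both. In the interaction Dlst came to -0.007 and -0.006. Idh1 in WT culture came to 0.008 with DESeq2 and with RLE factors, 0.014 with no filter and 0.00049 with all libraries in 1 fit. Leaving out each library in turn gave ranges, between genotypes in Tn, of -0.07 to 0.01 for Cs, -0.018 to 0.103 for Idh3b, -0.107 to 0.028 for Idh3g, -0.055 to 0.122 for Suclg1 and -0.074 to 0.011 for Sdhc. In Treg they were -0.034 to 0.084 for Ogdh, -0.037 to 0.043 for Dlst and 0.023 (without Aim2-/- Treg replicate 4) to 0.084 for the members' median. The median in culture was 0.269 to 0.384 in WT and 0.371 to 0.555 in Aim2-/-, and Idh1 in WT culture -0.181 to 0.119. In the interaction they were -0.028 to 0.085 for Idh3b, -0.049 to 0.122 for Suclg1, -0.12 to 0.071 for Fh1 and -0.044 to 0.073 for Mdh2. The cause of these changes was not tested.

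Counts of all genes called moved with the tool and the libraries: 17 to 127 (31 as reported) between genotypes in Tn, 10 to 52 (29) in Treg and 0 to 10 (3) in the interaction, and by less than 1.5 times in culture. The intervals give the genotype differences that 4 libraries a group leave possible, and some libraries of Ogdhl and Gls2 in Tn lay at or under the floor of 3 counts.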
